A study of Homo sapiens with 3 samples.

Results

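Small RNA sequencing of a miR-1-expressing line was compared directly with that of a miR-122-expressing line, to describe how their endogenous miRNAs differed when each line carried a different induced miRNA. Both lines were Flp-In T-REx 293 cells, derived from the human embryonic kidney line HEK293 and carrying the Tet repressor. They were transduced with a lentiviral vector in which a synthetic hairpin lay within the intron of a GFP cassette driven by a doxycycline-inducible CMV promoter. The hairpin encoded miR-1 in the one line and miR-122 in the other, in an artificial backbone, and the control line was labelled as carrying the empty vector. All lines were selected with Geneticin at 1 mg/mL for 6 days and then given doxycycline at 1 ug/mL for 7 days, so doxycycline was common to the lines and to the control. The comparison used 2 of the 3 libraries of the series, and the control library served only to place them. Each line was 1 library, so no test between conditions was possible, differences had no replicate check, and an effect of the miRNA cannot be told apart from a difference between cultures or library preparations.

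Members of the comparison were endogenous mature miRNAs whose count, averaged over the miR-1 and the miR-122 line, was at least 10. The synthetic hairpins were set aside, among them i-2.2, an artificial sequence whose 5p arm had 120 counts and 3p arm 7 in the control library and 0 in both lines. Also set aside were both arms of miR-3591, which is encoded on the strand opposite to miR-122. Of 1254 endogenous miRNAs with a count in either line, 519 were kept, and they held 99.90% of the endogenous counts in the miR-1 line and 99.91% in the miR-122 line. Just inside the limit, 9 miRNAs had a mean of exactly 10, such as miR-3127-3p with 4 counts in the miR-1 and 16 in the miR-122 library. Just outside it was miR-548aq-3p, with 6.5 and 13 counts. Endogenous totals were 1636480 counts for the control, 1791702 for miR-1 and 1945888 for miR-122. Below, 3 counts in a row belong to the control, then to the miR-1 and then to the miR-122 library, and are not scaled for these totals. Ratios are given as log2 of the miR-1 over the miR-122 library after scaling on the endogenous miRNAs, so that a positive value is higher in the miR-1 line. Their 95% intervals are exact (Clopper-Pearson) and cover counting error only.

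A miRNA is cut from a hairpin by Drosha and Dicer, and one arm, the guide, is retained by an Argonaute protein while the other arm, the passenger, is mostly lost. The guide pairs with target mRNAs chiefly through its seed, the bases near its 5′ end, and promotes their repression and decay. miR-1 is a miRNA of heart and skeletal muscle, whereas miR-122 is the dominant miRNA of hepatocytes, where it is known for its part in cholesterol metabolism. Neither is a characteristic miRNA of kidney-derived cells.

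The guides of the induced hairpins are shown first because they define the lines. Capitals mark the seed, bases 2 to 8, here and in all sequences printed, which are from RefSeq (GRCh38.p14) and read 5′ to 3′.
miR-1-3p: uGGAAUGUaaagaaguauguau
miR-122-5p: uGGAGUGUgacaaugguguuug

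The endogenous miRNAs on which the comparison turned are shown next, because they had the highest or lowest ratios, shared a seed with such a miRNA, or stood apart among the abundant ones. No sequence is given for miR-3607-3p, miR-3609, miR-21-3p and miR-375.
miR-1291: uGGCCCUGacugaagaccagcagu
miR-3651: cAUAGCCCggucgcugguacauga
miR-301a-3p: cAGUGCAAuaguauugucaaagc
miR-301b-3p: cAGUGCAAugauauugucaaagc
miR-130b-3p: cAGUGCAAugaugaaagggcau
miR-454-3p: uAGUGCAAuauugcuuauagggu
miR-33a-5p: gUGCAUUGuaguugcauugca
miR-33b-5p: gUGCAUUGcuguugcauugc
miR-210-3p: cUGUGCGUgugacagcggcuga
miR-18a-5p: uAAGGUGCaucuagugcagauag
miR-19a-3p: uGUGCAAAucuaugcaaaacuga
miR-101-3p: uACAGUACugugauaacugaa
miR-132-5p: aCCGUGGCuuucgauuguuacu
miR-99a-5p: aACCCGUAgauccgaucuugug

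Both lines matched their labels. miR-1-3p had 166, 1100840 and 369 counts, and was 3141-fold higher in the miR-1 than in the miR-122 line (log2 11.62, interval 11.47 to 11.77). For miR-122-5p the counts were 10, 10 and 627576, which is 56686-fold higher in the miR-122 line (log2 -15.79, interval -16.92 to -14.98). The guide took 38.1% of all counts of its line for miR-1 and 24.4% for miR-122. Relative to the endogenous miRNAs, miR-1-3p in its own line stood 1.85 times as high as miR-122-5p in its own (interval 1.84 to 1.86). miR-10a-5p, the most abundant endogenous miRNA, was exceeded 4.49 times by miR-1-3p and 2.18 times by miR-122-5p, each in its own line. These are read counts of different sequences, and how efficiently each was captured in a library was not tested.

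Passenger arms were scarce in both lines. miR-1-5p had 0, 98 and 0 counts, at least 34.4-fold higher in the miR-1 line than a floor of 3 counts in the miR-122 library. For miR-122-3p they were 0, 0 and 1635, at least 517-fold higher in the miR-122 line than a floor of 3 counts in the miR-1 library. Of the miRNAs that share the miR-1 seed, miR-206 had 0, 0 and 3 counts, and miR-613 had 0 in each.

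Most endogenous miRNAs differed little between the lines. The libraries are bulk samples, in which fewer cells of a type and less RNA per cell cannot be told apart. The ratio lay within 2-fold for 92.3% of the 519 and within 1.5-fold for 399 (76.9%), with a median log2 ratio of 0.02 and a robust spread of 0.44. Across miRNAs the scaled log2 counts of the libraries had a Pearson r of 0.985, which describes miRNAs within 1 pair of libraries and not replicates. At least 2-fold apart were 40 miRNAs, 7.71% of those kept, of which 26 (5.01%) were higher in the miR-1 line and 14 (2.70%) higher in the miR-122 line. When libraries were scaled on their totals with the induced miRNAs included, the median of all ratios moved to -0.23 and the split became 18 and 29. The counting interval of 34 of the 40 excluded equal levels and that of 6 included them. The whole interval lay past 2-fold for 4 (0.771%), namely miR-3607-3p, miR-1291, miR-3651 and miR-301a-3p, all higher in the miR-1 line.

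Differences of this size were found only among miRNAs of low and middle abundance. In the class with a mean count of 10 to 100, 22 miRNAs of 255 were at least 2-fold higher in the miR-1 line and 11 in the miR-122 line (12.9% in all). Among 154 miRNAs with 100 to 1000 counts these numbers were 4 and 3 (4.55%). None of the 75 with 1000 to 10000 counts and none of the 35 above that reached 2-fold, and the spread fell from 0.62 in the lowest class to 0.19 in the highest. The ratios of the 10 most abundant miRNAs ran from -0.25 for miR-148a-3p to 0.30 for miR-21-5p. miR-10a-5p, encoded in a HOX cluster, had a log2 ratio of -0.15, and miR-10b-5p, its close relative, one of 0.02. The others of the 10 not treated further below were miR-7-5p at -0.00, miR-25-3p at -0.18, miR-423-3p at -0.21 and miR-93-5p at -0.12.

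**Figure D1:**
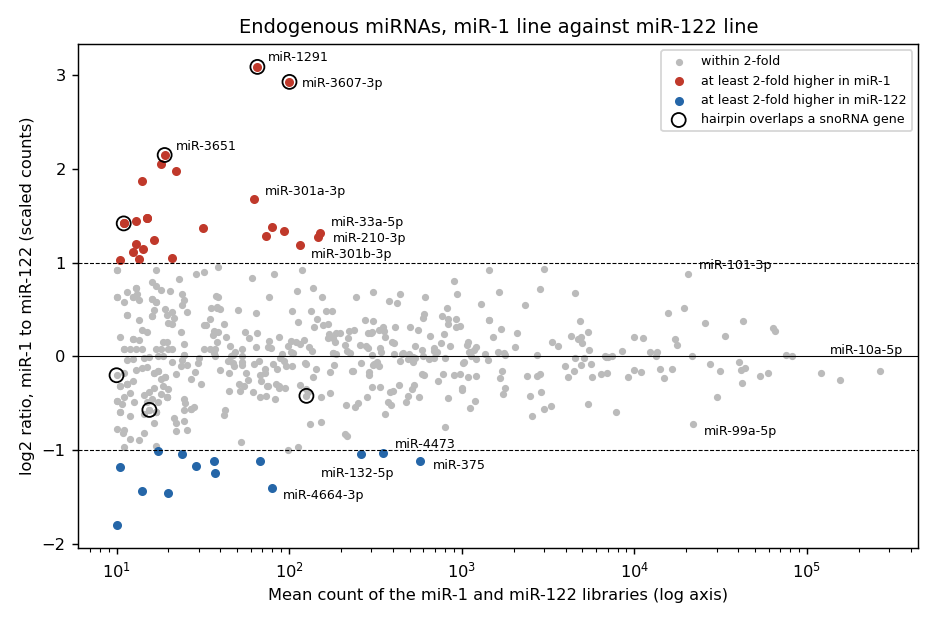
Each point is 1 of 519 endogenous miRNAs, with its mean count over the miR-1 and miR-122 libraries on a log axis and the log2 ratio of scaled counts, miR-1 to miR-122, on the other; dashed lines mark 2-fold and rings mark hairpins that overlap a snoRNA gene. The 40 coloured points lie below a mean count of 1000, and the 2 highest ratios, 3.09 for miR-1291 and 2.93 for miR-3607-3p, are ringed.

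The control library lay nearer the miR-1 than the miR-122 library for most miRNAs. Among all 519 it did so for 335 (64.5%), and the median absolute log2 ratio to control was 0.22 for the miR-1 and 0.35 for the miR-122 library. Among the 40 at least 2-fold apart it did so for 34 (85.0%), with medians of 0.28 and 1.24. Of the 26 higher in the miR-1 line the control was nearer that line for 25, and of the 14 higher in the miR-122 line for 9. The miR-122 library was thus the farther one from control for most miRNAs but not for all, and for miR-375, miR-143-3p and miR-548f-3p the control was nearer to it. No kept miRNA was at least 2-fold above control in one line and at least 2-fold below it in the other.

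The highest ratios belonged to entries located in snoRNA genes. Small nucleolar RNAs guide the chemical modification of ribosomal and other RNAs, and stable fragments of them are counted as miRNAs in many annotations. miR-3607-3p had 175 counts in the control, 177 in the miR-1 and 24 in the miR-122 library, a log2 ratio of 2.93 (interval 2.34 to 3.64). Its hairpin lies at chr5:85916323-85916385 on the plus strand (GRCh37, as all positions below), in an exon of COX7C, and its gene is classed as a snoRNA. For miR-1291 the counts were 90, 117 and 14, a log2 ratio of 3.09 (interval 2.34 to 4.05), and its hairpin lies within SNORA34 in an intron of KANSL2, at chr12:49048227-49048313 on the minus strand. In both cases the control and miR-1 libraries were high and the miR-122 library was low.

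miR-3651, within SNORA84 in an intron of IARS1 (chr9:95054740-95054829, minus strand), had 17, 31 and 7 counts and a log2 ratio of 2.15 (interval 1.01 to 3.65). miR-1248, within SNORA81 in an exon of EIF4A2, had 18, 16 and 6 counts and a log2 ratio of 1.42. Not every such entry followed this order. Of 503 kept miRNAs with a located hairpin, 7 overlapped a snoRNA or scaRNA gene on the same strand, with a median log2 ratio of 1.42. The 4 named above, of these 7, were at least 2-fold higher in the miR-1 line, beside 5.01% of all kept miRNAs. The arms of miR-664a and miR-664b had log2 ratios of -0.42, -0.57 and -0.20.

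A wider list of snoRNA-derived and fragment-like entries had 35 names, of which 17 were kept. Their median log2 ratio was 0.25, with 9 above and 8 below 0. At least 2-fold higher in the miR-1 line were 6 of the 17, beside 5.01% of all kept miRNAs, and 0 were so in the miR-122 line, beside 2.70%. With a mean count of at least 100 required, the median of the list was -0.01. The most abundant of these entries, miR-1260b, had 730, 778 and 831 counts and a ratio of -0.02. miR-7641, with 9, 16 and 6 counts, had a log2 ratio of 1.42, and miR-3609, from an intron of TRRAP, had 24, 22 and 6 counts and a ratio of 1.87. Their low counts leave the size of each difference imprecise. Without the list, 34 miRNAs stood at least 2-fold apart, 20 higher in the miR-1 line and 14 in the miR-122 line.

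Of the family of miR-130, miR-301 and miR-454, whose 3p arms share the seed AGUGCAA, miR-301a-3p and miR-301b-3p were at least 2-fold higher in the miR-1 line. This family is broadly expressed and is known to target, among others, components of TGF-beta signalling. miR-301a-3p, from an intron of SKA2, had 78 counts in the control, 95 in the miR-1 and 31 in the miR-122 library, a log2 ratio of 1.68 (interval 1.09 to 2.33). miR-301b-3p had 123, 159 and 73 counts and a log2 ratio of 1.19 (interval 0.79 to 1.62). The other 3p arms of the family differed less, with ratios of 0.37 for miR-130b-3p, 0.11 for miR-130a-3p and 0.06 for miR-454-3p. The median of the 5 3p arms was 0.37, beside 0.02 for all kept miRNAs. The 5p arms miR-130b-5p, with 2020, 2577 and 3109 counts, and miR-301a-5p had ratios of -0.19 and 0.31. In both hairpins the 5p arm was the more abundant, with mean counts of 2843 against 112 and of 410.5 against 63.0. For the family with both arms, 9 of 10 entries were kept, 7 were above and 2 below 0 with a median of 0.27. The scaled control count lay nearer the miR-1 than the miR-122 library for each of the 9, beside 64.5% of all kept miRNAs.

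Lipid- and hypoxia-associated miRNAs had the highest median of the lists described, 0.55 over 9 kept entries, of which 7 were above 0 and 4 were at least 2-fold higher in the miR-1 line, beside 5.01% of all kept miRNAs. Without miRNAs of fractional counts the median was 1.16, but that step left out members with lower ratios, among them miR-378a-3p, the most abundant. The most abundant members of the list, miR-378a-3p, miR-103a-3p and miR-107, stayed within 2-fold, with ratios of 0.38, -0.14 and 0.55. The miR-33 genes lie in introns of SREBF2 and SREBF1, whose proteins drive sterol and fatty acid synthesis, and miR-33 represses the cholesterol exporter ABCA1. miR-33a-5p had 186, 214 and 90 counts, a log2 ratio of 1.32 (interval 0.96 to 1.70). Its passenger arm miR-33a-3p had 20, 18 and 9 counts and a ratio of 1.04. miR-33b-5p, from the paralogous gene, had 13, 22 and 8 counts and a ratio of 1.48, whereas miR-33b-3p had a ratio of 0.55. miR-210-3p, the miRNA best known for its induction in hypoxia, had 213, 206 and 89 counts, a log2 ratio of 1.28 (interval 0.92 to 1.66). Control and miR-1 counts of miR-33a-5p and miR-210-3p were close to each other, and those of the miR-122 library were lower.

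The miR-17-92 cluster, a MYC-driven polycistron with roles in proliferation, was unequal among its members. Its 6 hairpins start between positions 92002859 and 92003568 of chromosome 13, in exons of MIR17HG. Of 14 entries, 11 were kept, with a median log2 ratio of 0.52, 8 above and 3 below 0. miR-18a-5p had 3552.5, 3852.5 and 2132 counts, the highest ratio among miRNAs with 1000 to 10000 counts (0.93, interval 0.85 to 1.01). miR-19a-3p had 1669, 1844 and 1029 counts and a ratio of 0.92 (interval 0.81 to 1.03), and miR-19b-3p, which a further hairpin on chromosome X also encodes, one of 0.72. Other members of the same transcript had lower ratios, 0.27 for miR-20a-5p, 0.36 for miR-17-5p and -0.18 for miR-92a-3p, which a paralogous hairpin also encodes. Only miR-19b-1-5p, with 32, 19 and 7 counts, was at least 2-fold apart (ratio 1.45). Against the control library the median of the cluster was -0.04 in the miR-1 line and -0.55 in the miR-122 line, which share that library.

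Other abundant miRNAs higher in the miR-1 line stayed within 2-fold. miR-101-3p, which targets the histone methyltransferase EZH2, had 20914, 26158 and 15001 counts, the highest ratio among miRNAs above 10000 counts (0.88, interval 0.85 to 0.91). miR-152-3p, of the family of miR-148a, had 866, 1125 and 678 counts and a ratio of 0.81. miR-143-3p, a miRNA of smooth muscle, had 112, 169 and 107 counts and a ratio of 0.73. For each of these the control count, once scaled, lay between those of the lines. miR-548f-3p, a primate miRNA of a repeat-derived family, had 94, 151 and 84 counts and a ratio of 0.92.

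Several guides and passengers of one hairpin parted. miR-21-3p had 99, 133 and 55 counts and a ratio of 1.34, while miR-21-5p, the guide of the same hairpin in VMP1, had 52957, 68604 and 58598 counts and a ratio of 0.30. miR-196a-3p had 118, 103 and 44 counts and a ratio of 1.29, and the abundant miR-196a-5p one of 0.20. A further hairpin also encodes miR-196a-5p, so this pair does not compare the arms of a single hairpin. miR-222-5p had 12, 22 and 8 counts and a ratio of 1.48, and its partner miR-222-3p one of 0.01. Among 115 hairpins with both arms kept and no second copy, the ratio of the 5p arm had a Pearson r of 0.210 and a Spearman rho of 0.243 with that of the 3p arm. The arms had the same sign in 65. Both arms were at least 2-fold apart in 1 hairpin, miR-33a, whose 3p arm had a mean count of only 13.5, and 1 arm only in 12. Taken singly, 7.71% of all kept miRNAs were at least 2-fold apart, so such arms were not set apart from other miRNAs by these numbers. With at least 100 counts in each arm, r was 0.0963 over 46 hairpins and 22 had arms of the same sign. In 1 of these 46, 1 arm only was at least 2-fold apart. Arms of a hairpin share their libraries and scaling, and many counts were low.

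**Figure D2:**
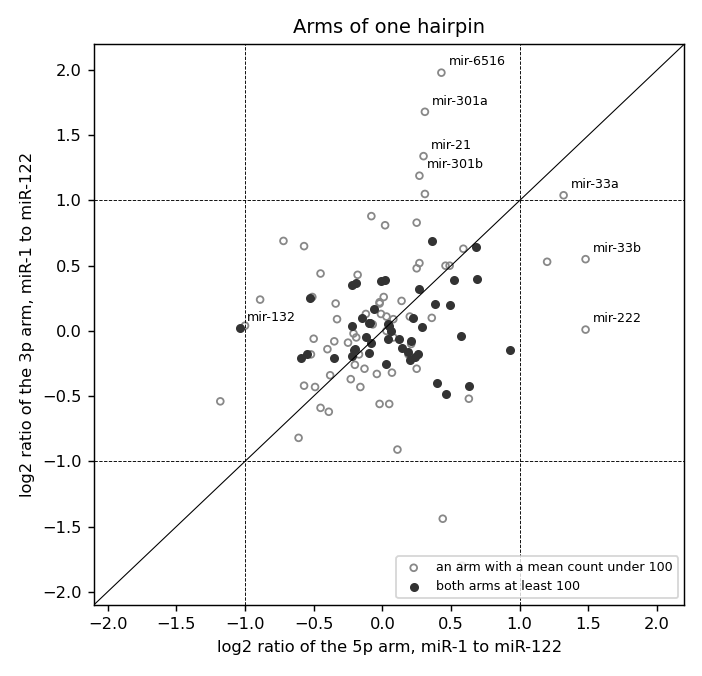
Each point is 1 of 115 hairpins, with the log2 ratio, miR-1 to miR-122, of its 5p arm against that of its 3p arm, both from scaled counts. The points form a diffuse cloud (Pearson r 0.210), and miR-33a alone has both arms past 2-fold, its 3p arm at a mean count of only 13.5.

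Among miRNAs higher in the miR-122 line, the leading ones with a mean count of at least 100 were miR-375, miR-132-5p and miR-4473. miR-375, a miRNA of pancreatic islets and neuroendocrine cells, had 505 counts in the control, 349 in the miR-1 and 801 in the miR-122 library, a log2 ratio of -1.12 (interval -1.31 to -0.94). Its gene lies at chr2:219866367-219866430 on the minus strand, in no annotated gene but its own. miR-132-5p, the passenger of a miRNA induced by CREB in neurons, had 174, 164 and 355 counts and a ratio of -1.04 (interval -1.31 to -0.77). The guide of the same hairpin, miR-132-3p, had a ratio of 0.02 at a mean count of 303, beside 259.5 for the passenger. miR-4473, from an intron of MLLT3, had 175, 221 and 475 counts and a ratio of -1.03 (interval -1.26 to -0.79). For miR-375 the scaled control count lay between the lines and nearer the miR-122 line, and for miR-132-5p and miR-4473 it lay nearer the miR-1 line.

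miR-99a-5p, whose family is known to target mTOR, had 15622, 15942 and 27657 counts, the lowest ratio among miRNAs above 10000 counts (-0.72, interval -0.75 to -0.69). The other abundant members of its list, miR-99b-5p and miR-125a-5p, had ratios of 0.12 and -0.19. The 9 kept entries of the miR-99/100 and miR-125 families had a median of -0.19, with 2 above and 7 below 0. miR-96-5p, of the cluster it forms with miR-183 and miR-182, had 1899, 1925 and 3155 counts, the lowest ratio among miRNAs with 1000 to 10000 counts (-0.64), and all 5 kept entries of that cluster were below 0 with a median of -0.29, among them miR-182-5p at -0.13 and miR-183-5p at -0.23. Below 100 counts, miR-4664-3p had 28, 42 and 118 counts and a ratio of -1.40 (interval -1.96 to -0.89), and was chosen after its values were seen.

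Of the other miRNAs with the lowest ratios, 5 had fractional counts, so that reads were shared with other entries and their division is uncertain. miR-1268a had 73.5, 147.5 and 276.5 counts and miR-1268b 76.5, 148.5 and 283.5, with ratios of -0.83 and -0.85. miR-550a-5p and miR-550a-3-5p had ratios of -0.72 and -0.70, and miR-548o-3p one of -0.75. miR-3177-3p had 94, 73 and 151 counts and a ratio of -0.97.

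**Figure D3:**
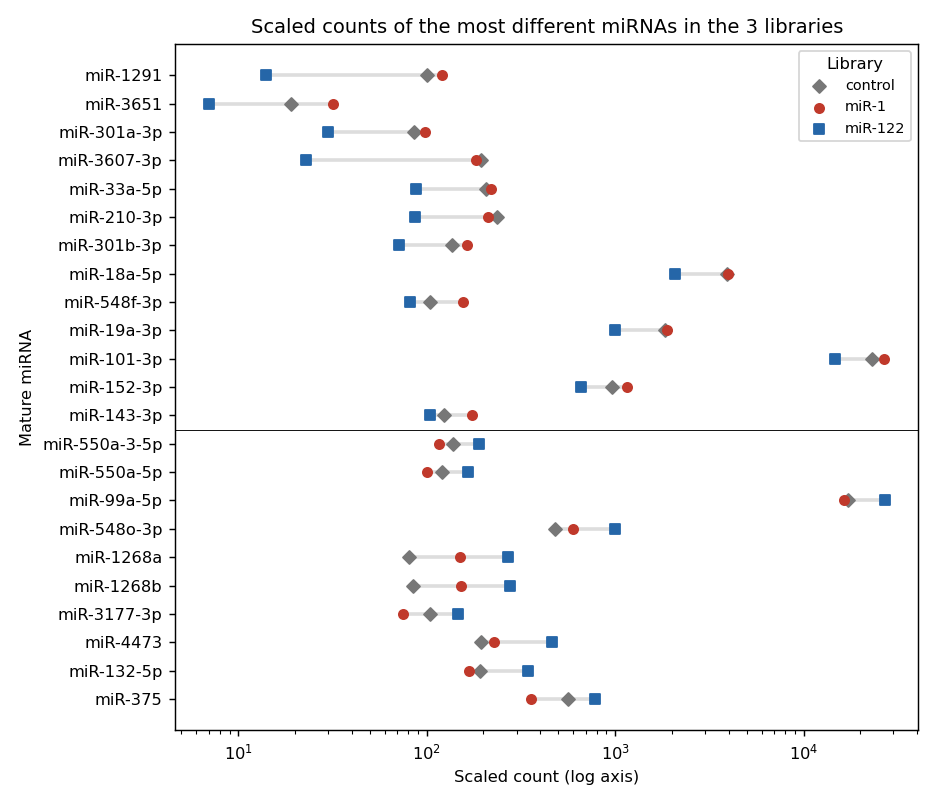
Scaled counts on a log axis are plotted for the miRNAs with the highest ratios (above the line) and the lowest (under it); diamonds are the control, circles the miR-1 and squares the miR-122 library, 1 library each and thus without error bars. For miR-3607-3p and miR-1291 the miR-122 library is far below the other two, and for miR-132-5p and miR-4473 it is above them.

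Seed families differed in their medians. Among miRNAs with a RefSeq sequence, all 6 with the seed AGCAGCA had ratios above 0, from 0.04 to 0.67, with a median of 0.43. These are 5p arms of the miR-15/16 family, which restrains the cell cycle. miR-15a-5p, for example, had 553, 529 and 350 counts, while the more abundant miR-16-5p had a ratio of 0.26 and miR-15b-5p one of 0.04. With both arms the family had 12 kept entries and a median of 0.10, which was -0.14 when libraries were scaled on totals with the induced miRNAs, and 3 of the 12 were below 0, the lowest being miR-195-3p at -0.91. All 5 with the seed AUUGCAC, the group of miR-92a and miR-25, were below 0, from -0.56 for miR-363-3p to -0.10, with a median of -0.18. The 9 let-7 guides with the seed GAGGUAG had a median of 0.01, 5 above and 4 below 0. Of all kept miRNAs, 51.6% were above and 48.4% below 0.

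**Figure D4:**
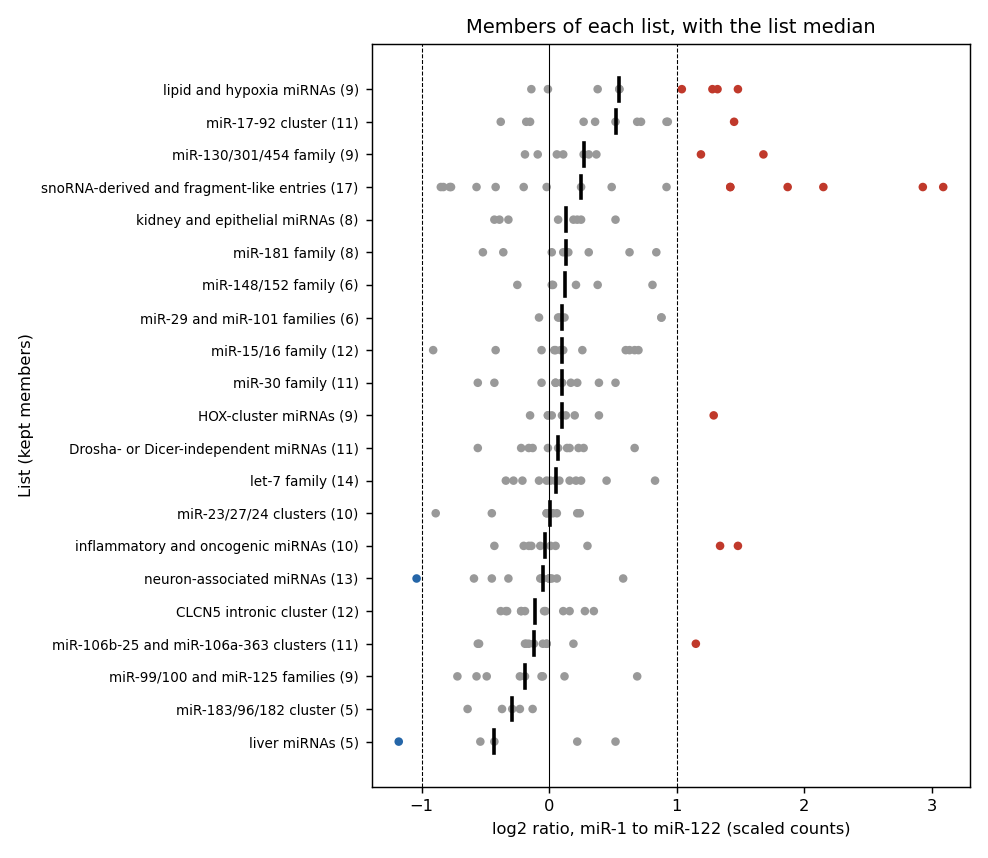
For each miRNA list, points are the log2 ratios, miR-1 to miR-122, of its kept members and the bar is their median. The lipid and hypoxia list has a median of 0.55 and the miR-17-92 cluster one of 0.52, and the cluster of miR-183, miR-96 and miR-182 lies below 0 throughout.

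GC content of the mature sequence moved with the ratio. It could be computed for the 455 of 519 miRNAs with a RefSeq sequence. Over these 455, GC content had a Pearson r of -0.163 and a Spearman rho of -0.166 with the log2 ratio, and an r of 0.0477 and 0.177 with the ratios of the miR-1 and the miR-122 line to control. Among the 235 of these that averaged 100 counts or more, r was -0.316 and rho -0.287 with the log2 ratio, so that AU-rich miRNAs tended to be higher in the miR-1 line. With the ratio of each line to control, r was 0.132 in the miR-1 and 0.350 in the miR-122 line. AU-rich members of this kind included miR-101-3p, of 33.3% GC, and miR-19a-3p, of 34.8%, whereas miR-210-3p, of 63.6%, was also higher in the miR-1 line. The miRNAs share the libraries, and the part of GC content in the differences named above was not tested.

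**Figure D5:**
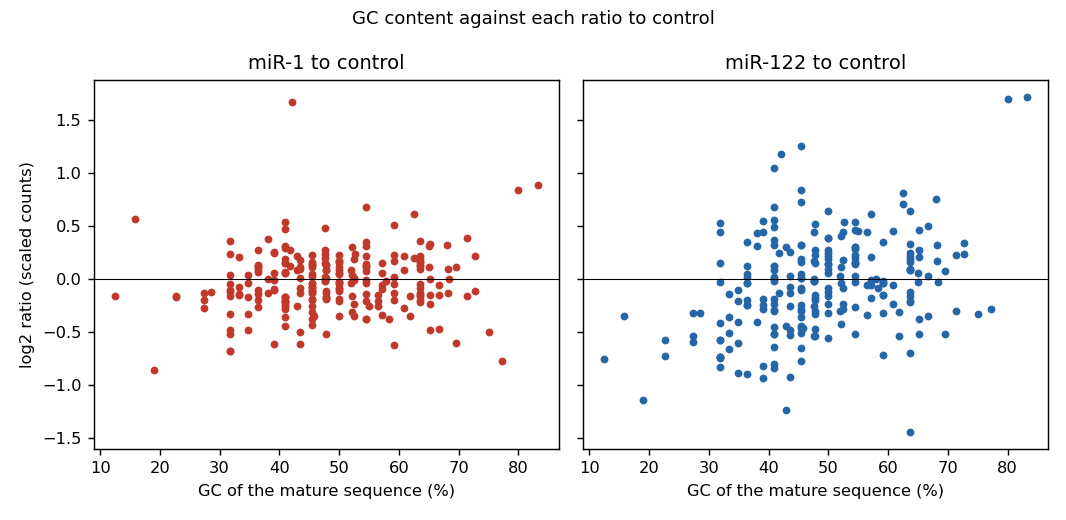
GC content of the mature sequence is plotted against the log2 ratio of scaled counts to control, for the miR-1 line on one panel and the miR-122 line on the other, over the 235 miRNAs that have a RefSeq sequence and average at least 100 counts. The correlation is higher in the miR-122 panel, with a Pearson r of 0.350 against 0.132.

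Most markers of muscle were absent, whereas some miRNAs of the liver and blood cell lists were present. Of 8 muscle entries, 6 had 0 counts in both lines, and only miR-499a-5p was kept, with 41, 59 and 66 counts. Of 8 liver entries 5 were kept, with a median of -0.43, 2 above and 3 below 0, but the median was 0.38 with a mean count of at least 100, 0.39 with at least 50 and 0.06 without a filter. The abundant ones, which kidney cells also express, were miR-192-5p with 3634, 4508 and 4074 counts and miR-194-5p with 1040, 943 and 692, with ratios of 0.22 and 0.52. miR-483-3p had 24, 22 and 34 counts. From the same hairpin, miR-483-5p was the only one at least 2-fold apart, with 10, 6 and 15 counts. In the blood cell list 2 of 11 were kept, miR-486-5p with 434, 439 and 592 counts and miR-486-3p with 47, 46 and 38, and miR-223, the granulocyte miRNA, had 0 counts in every library.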

How the data were processed

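Small RNA-seq was available for 3 libraries, of which the miR-1 and miR-122 libraries were compared. Libraries were made from 1000 ng total RNA with a NEBNext small RNA kit and sequenced on a NextSeq500. The authors aligned reads of at least 18 nt to human hairpins of miRBase release 21 plus their synthetic hairpins with miRDeep2, and deposited estimated counts for each pair of mature miRNA and hairpin, dividing multi-mapping reads (309 of 2817 rows were fractional). The authors also deposited RPM values, at most 0.00652 RPM from counts over the library total. A deposited pooled total that includes libraries not analysed here was not used. The submitters' notes name hg19.

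Counts were summed by mature name. With the induced miRNAs, totals were 1636834 (control), 2892684 (miR-1) and 2577292 (miR-122), so that 1 count was 0.611, 0.346 and 0.388 RPM. Libraries were scaled by TMM on the kept endogenous miRNAs (edgeR 4.0.16, R 4.3.3) with a pseudocount of 0.5, and intervals used rounded counts. Reads had no molecular identifiers. The floor for a count of 0 was 3 counts. The spread was a median absolute deviation scaled to match a normal SD. RefSeq hairpins were matched exactly to GRCh37 (330 hairpins), 85 others were placed by GENCODE release 44 lifted to GRCh37, and 25 were not located. The steps were tested on simulated data.

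Named were the induced arms and miR-3591, the 10 highest mean counts, the 10 highest and 10 lowest ratios with a mean count of at least 100, up to 5 highest and 5 lowest below that whose interval lay past 2-fold, and, of each of 24 lists, up to 3 most abundant and every member at least 2-fold apart; other miRNAs named were chosen after their values were seen. Members and lists were chosen with earlier results of these data known. Alternatives covered scaling, count filter, pseudocount, hairpin summing, fold limit and spread measure.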

Additional observations from a re-analysis of the deposited data

Results flagged for a closer look

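Counts outside the compared miRNAs stood above the control library in the miR-122 line. miR-3591-5p had 1756 counts there, 1 in the control and 0 in the miR-1 library, at least 555-fold higher than a floor of 3 counts in the miR-1 library. miR-3591-3p had 25 counts there and 0 in the others, at least 7.90-fold higher. miR-3591 is encoded on the strand opposite to the miR-122 hairpin. miR-1-3p had 369 counts in the miR-122 library and 166 in the control, 1.96-fold higher after scaling (interval 1.62 to 2.36). The causes were not tested.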

How the results depend on the processing

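No paired analysis was possible because the lines were 1 library each. Of 769 values recomputed, 140 moved beyond their interval or, for numbers of miRNAs or lists, by over 1.5 times, and no miRNA at least 2-fold apart changed direction under the other scalings or the larger pseudocount. The medians of lists changed sign in 17 of 228 recomputations, 10 of them with the total that includes the induced miRNAs; the liver list changed from -0.43 to 0.38, 0.39 and 0.06 at minimums of 100 and 50 and without a filter. The number of miRNAs at least 2-fold apart, 40 as reported, was 7 with a mean count of at least 100, 14 with at least 50, 468 without a count filter, 120 at a limit of 1.5-fold and 8 at 3-fold. Those higher in the miR-1 line (26) were then 4, 9, 249, 72 and 7, and those higher in the miR-122 line (14) were 3, 5, 219, 48 and 1. The latter were 29 when the total included the induced miRNAs, and 9 with a pseudocount of 5. With the induced miRNAs in the total, the lists with a median above 0 fell from 14 to 4. The spread of 0.44 was 0.33 and 0.34 at the higher count minimums, 0.99 without a filter and 0.57 as a standard deviation. Leaving out snoRNA-derived entries or fractional counts was chosen after seeing the data, and gave 34 and 39 miRNAs at least 2-fold apart. Below 100 counts the depth limits the size of a difference, and no replicate error could be had.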

Other observations

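Further miRNA lists had medians within 0.13 of equal levels on the log2 scale. In the let-7 family, which restrains growth in differentiated cells, 14 of 20 entries were kept, with a median of 0.05 (-0.20 when libraries were scaled on totals with the induced miRNAs). Its most abundant guides let-7a-5p, let-7f-5p and let-7g-5p had ratios of -0.28, -0.08 and 0.05. All 11 entries of the miR-30 family were kept, with a median of 0.10 (-0.14 under that scaling), but miR-30e-5p stood at 0.52, beside 0.22 for miR-30a-5p and -0.06 for miR-30d-5p. The miR-181 family had a median of 0.13 (-0.12 under that scaling), with miR-181a-5p at 0.11, miR-181b-5p at 0.02 and miR-181d-5p at -0.36. In the family of miR-148a, miR-148b-3p was at 0.21 and miR-148a-5p at 0.03. miR-27b-3p, miR-24-3p and miR-23b-3p were at 0.00, -0.02 and 0.24, and miR-29a-3p and miR-29b-3p at 0.07 and 0.12. miR-16-2-3p was at 0.05 and miR-215-5p, of the kidney and epithelial list, at 0.07.

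The neuron-associated list had 13 of 20 entries kept, with a median of -0.05 (0.01 with a mean count of at least 100), 3 above and 10 below 0. Its abundant members miR-128-3p and miR-9-5p were at -0.00 and 0.06. Of the abundant miRNAs with oncogenic roles, miR-221-3p was at -0.14. miRNAs made without Drosha or Dicer included miR-320a at -0.22, miR-484 at 0.07 and miR-3615 at 0.16. The CLCN5 intronic cluster on chromosome X had 12 of 16 entries kept, with a median of -0.12, 4 above and 8 below 0, led by miR-532-5p at -0.22, miR-660-5p at -0.03 and miR-500a-3p at -0.34. The miR-106b-25 and miR-106a-363 clusters, paralogs of miR-17-92, had 11 kept and a median of -0.12, with 2 above and 9 below 0 and a range from -0.56 to 1.15. miR-106b-5p was at 0.19, and 1 member, miR-18b-5p with 28.5, 19.5 and 9 counts in control, miR-1 line and miR-122 line, was at least 2-fold higher in the miR-1 line. Of the 90 entries of the 14q32 imprinted cluster, 70 had 0 counts in both lines and 0 were kept.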
